A study of Homo sapiens with 8 samples.

Results

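Small nucleolar RNA host genes were followed in 2 human colorectal carcinoma lines treated with free 5-fluorouracil or with a nanodrug that carries it. The members were the genes whose symbol is SNHG followed by a number, together with GAS5 and ZFAS1, which gave 26 of the 57169 genes in the deposited count table. HCT116 is a line from a primary colorectal carcinoma, and SW620 comes from a metastasis in a lymph node. The 4 groups were HCT116 with 5-FU, HCT116 with AFZC, SW620 with 5-FU and SW620 with AFZC, each with 2 libraries, and the series' design text gives a treatment time of 24 hours at the IC50 dose of each agent for its line. 5-FU (5-fluorouracil) is a pyrimidine analogue that inhibits thymidylate synthase and is also built into RNA, and AFZC is the label of the preparation that the series title describes as a metal-organic framework with an aptamer on its surface and 5-FU inside. The labels give no genotype or clone for either line. No group without drug was analysed here: each treatment difference is AFZC relative to 5-FU, and per the series title both arms of a line received 5-FU in some form. With bulk RNA, fewer cells of a kind and less RNA per cell cannot be told apart.

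A snoRNA host gene is a transcription unit whose introns contain small nucleolar RNAs (snoRNAs). After splicing, the intron is debranched and trimmed to the snoRNA, which enters a ribonucleoprotein: box C/D snoRNAs (SNORD) guide ribose methylation of ribosomal RNA with the methyltransferase fibrillarin, and box H/ACA snoRNAs (SNORA) guide pseudouridylation with dyskerin. Many hosts are ribosomal protein and translation factor genes, while most of the host genes described here have spliced exons with little or no coding capacity. Several of these spliced RNAs, GAS5 and SNHG1 among them, carry a terminal oligopyrimidine tract at their start, as ribosomal protein mRNAs do, and are degraded by nonsense-mediated decay while they are translated. GAS5 takes its name from growth arrest-specific transcripts, since it accumulates when growth stops. Poly(A) selection, used for these libraries, captures the spliced host RNA and not the snoRNA.

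The snoRNAs carried by hosts on which the results turn are shown here because they tell the 2 classes of host apart. In the box C/D sequences the capitals mark the C box (TGATGA) and the D box (CTGA), and in the box H/ACA sequences they mark the ACA near the 3′ end. All are written 5′ to 3′ as DNA from the GENCODE 29 annotation on GRCh38.
SNORD50B in SNHG5: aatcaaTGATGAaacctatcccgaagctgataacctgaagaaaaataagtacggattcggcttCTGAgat
SNORD60 in SNHG19: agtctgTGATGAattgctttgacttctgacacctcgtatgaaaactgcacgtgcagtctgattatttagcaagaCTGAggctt
SNORD1B in SNHG16: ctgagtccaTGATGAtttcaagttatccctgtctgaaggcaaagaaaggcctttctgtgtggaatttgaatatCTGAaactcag
SNORD12B in ZFAS1: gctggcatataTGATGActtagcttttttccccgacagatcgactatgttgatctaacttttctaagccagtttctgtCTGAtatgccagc
SNORD27 in SNHG1: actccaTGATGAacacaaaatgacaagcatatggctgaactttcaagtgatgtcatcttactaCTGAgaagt
SNORA17A in SNHG7: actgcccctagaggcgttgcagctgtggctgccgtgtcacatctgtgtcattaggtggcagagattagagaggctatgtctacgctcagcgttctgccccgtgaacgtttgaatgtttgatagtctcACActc
SNORA73B in SNHG3: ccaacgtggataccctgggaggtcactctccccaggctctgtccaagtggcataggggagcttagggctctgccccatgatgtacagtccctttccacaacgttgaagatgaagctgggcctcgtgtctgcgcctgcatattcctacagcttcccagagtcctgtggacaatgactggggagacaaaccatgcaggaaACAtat
Both boxes, the C box within the first 20 bases and the D box within the last 20, were found in 64.9% of 288 SNORD sequences of that annotation and in 0 of 149 SNORA sequences. An ACA within the last 8 bases was found in 89.9% of the SNORA and 4.9% of the SNORD sequences.

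The hosts differ in how many snoRNAs they carry. In the RefSeq annotation GAS5 holds 11, all but SNORA103 of them box C/D, and SNHG1 holds 9. SNHG17, with 5 snoRNA entries, and SNHG12, with 4, are mostly H/ACA hosts. ZFAS1 and SNHG16 hold 3 box C/D snoRNAs each, SNORD12 to SNORD12C and SNORD1A to SNORD1C. SNHG3 holds SNORA73A and SNORA73B, copies of the U17 snoRNA that takes part in cleavage of the small-subunit rRNA precursor, SNHG5 holds SNORD50A and SNORD50B, and SNHG7 holds SNORA17A and SNORA17B. Single snoRNAs sit in SNHG6 (SNORD87), SNHG8 (SNORA24), SNHG15 (SNORA9) and SNHG19 (SNORD60). SNHG14, the host of the imprinted SNORD115 and SNORD116 clusters on chromosome 15, holds 84.

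The deposited exon models, on GRCh38, bear on what was counted. All 26 genes lay at the same position as in GENCODE 29: GAS5 at chr1:173863900-173868882, SNHG1 at chr11:62851988-62855914, SNHG3 at chr1:28505980-28510892, SNHG5 at chr6:85660950-85678748, SNHG7 at chr9:136721366-136728184, SNHG16 at chr17:76557766-76565348, SNHG19 at chr16:2154797-2155358 and ZFAS1 at chr20:49278178-49295738. The models merge every annotated transcript, so that 3756 of the 3927 bases of SNHG1 and 3631 of the 4983 bases of GAS5 count as exon, introns retained in some transcript included. With SNHG14 left aside, 29 snoRNA rows lay on such an exon model, and 27 of them were at 0 in all 8 libraries, with 8 counts in all. The 20 snoRNA rows in introns outside the models held 2195 counts, with 16 of 20 above 0. All 441 snoRNA rows of the table together took 0.0025% to 0.00316% of the counts of a library, so levels of the snoRNAs themselves are not described here. The libraries did not keep the strand, and parts of some models are shared with other genes: 46.9% of the exon bases of ZFAS1, 36.4% for SNHG6 (mostly MCMDC2), 33.4% for SNHG16 (mostly AC015802.6), 31.4% for SNHG7 (mostly FAM69B), 16.6% for SNHG4 (mostly MATR3) and 11.0% for SNHG3 (RCC1 and SNORA73A). For SNHG21, SNHG25 and SNHG28 the shared part was 72.9%, 48.6% and 41.6%, that of SNHG28 mostly with SLAMF8 and VSIG8. An entry named SNHG28 is typed as protein coding in GENCODE 29. Reads in shared bases cannot be assigned to a host by strand. The models of SNHG17, SNHG19 and SNHG26 share no base with another gene, and 1.2% of that of GAS5 is shared.

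Library totals ran from 31991561 to 40590291 counts. Of 10 epithelial markers, EPCAM, KRT8, KRT18, KRT20, CDH1, CDH17 and CDX2 had counts in every library. VIL1, CDX1 and CEACAM5 were at 0 in 1, 3 and 3 libraries, and CDX1 never exceeded 8 counts. In HCT116, VIL1 and CEACAM5 had at most 74 and 2 counts. The 10 markers summed to 2606 to 5438 CPM in HCT116, 12627 to 13842 in SW620 with 5-FU and 4119 to 4586 in SW620 with AFZC. Under AFZC, VIL1 was called higher in HCT116. In SW620, KRT20 was called 8.86-fold higher and 2 markers lower, KRT8 among them (4.11-fold). The 8 leukocyte markers summed to 0.605 to 0.915 CPM in HCT116, 5.78 to 8.28 in SW620 with 5-FU and 17.7 to 44.0 in SW620 with AFZC. LYZ reached 1437 counts and was 4.29-fold higher under AFZC in SW620, while PTPRC and CD3E never exceeded 2. The 4 endothelial markers summed to 4.50 to 5.56 CPM in HCT116, 5.26 to 5.51 in SW620 with 5-FU and 13.6 to 18.3 in SW620 with AFZC, with VWF called 3.87-fold higher there and CDH5 at no more than 21 counts. KDR was called 11.9-fold lower under AFZC in HCT116, with at most 58 counts. The 6 fibroblast markers summed to 44.6 to 59.7 CPM in HCT116, 52.8 to 57.3 in SW620 with 5-FU and 49.3 to 81.5 in SW620 with AFZC. COL1A1 had 663 to 2197 counts in every library, and LUM had 749 to 1535 in SW620 and 0 in HCT116. PDGFRB was called higher under AFZC in both lines, 2.46-fold in HCT116 and 4.33-fold in SW620, while COL1A2 and DCN never exceeded 7 and 4 counts. The part of these markers in the host results was not tested. Mitochondrially encoded genes took 9.95% to 12.4% of the counts in HCT116 and 5.18% to 6.65% in SW620.

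Of the 26 host genes, 23 had enough counts to be tested. SNHG18 and SNHG27 had 0 counts in every library, which allows a level of up to 0.0739 to 0.0938 CPM (3 counts, counting error only), and SNHG14 had 2 to 10 counts per library. CPM here are counts relative to the library total, scaled with TMM factors, and are used for a gene across libraries. TPM, which also divide by the length of the exon model, are used between genes. Host genes as a group took 0.0979% and 0.0862% of the counts in the HCT116 5-FU libraries and 0.0625% and 0.0696% under AFZC. In SW620 they took 0.185% and 0.216% under 5-FU and 0.0808% and 0.154% under AFZC. The 5-FU libraries were above the AFZC libraries in both lines, and the SW620 5-FU libraries were above all others.

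Per length, SNHG6 was the highest host in HCT116 with 5-FU at 289 ± 25.2 TPM (SD, n = 2), followed by GAS5 at 203 ± 15.7, SNHG19 at 153 ± 10.1, SNHG8 at 143 ± 6.48, SNHG1 at 89.7 ± 1.29 and ZFAS1 at 52.3 ± 1.11. SNHG19 and SNHG8 differed by less than the spread of SNHG19 between libraries. SNHG16 (47.7 ± 0.456), SNHG5 (45.8 ± 0.258), SNHG7 (39.5 ± 2.63), SNHG3 (38.5 ± 3.02) and SNHG4 (27.8 ± 1.69) came next, and SNHG7 and SNHG3 differed by less than their spread. The order in SW620 with 5-FU was another: GAS5 stood first at 525 ± 92.8 TPM, then SNHG5 at 392 ± 29.4, SNHG6 at 321 ± 3.19, SNHG1 at 299 ± 61.8, ZFAS1 at 219 ± 43.4, SNHG8 at 217 ± 24.9, SNHG7 at 123 ± 3.32 and SNHG19 at 97.0 ± 3.99. SNHG6 and SNHG1 in this list, and ZFAS1 and SNHG8, were closer than their spread. At the low end, SNHG21, SNHG22 and SNHG28 stayed under 3 TPM in every library, and SNHG9 and SNHG26 reached at most 14.3 and 11.0 TPM, both in HCT116 with AFZC.

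**Figure D1:**
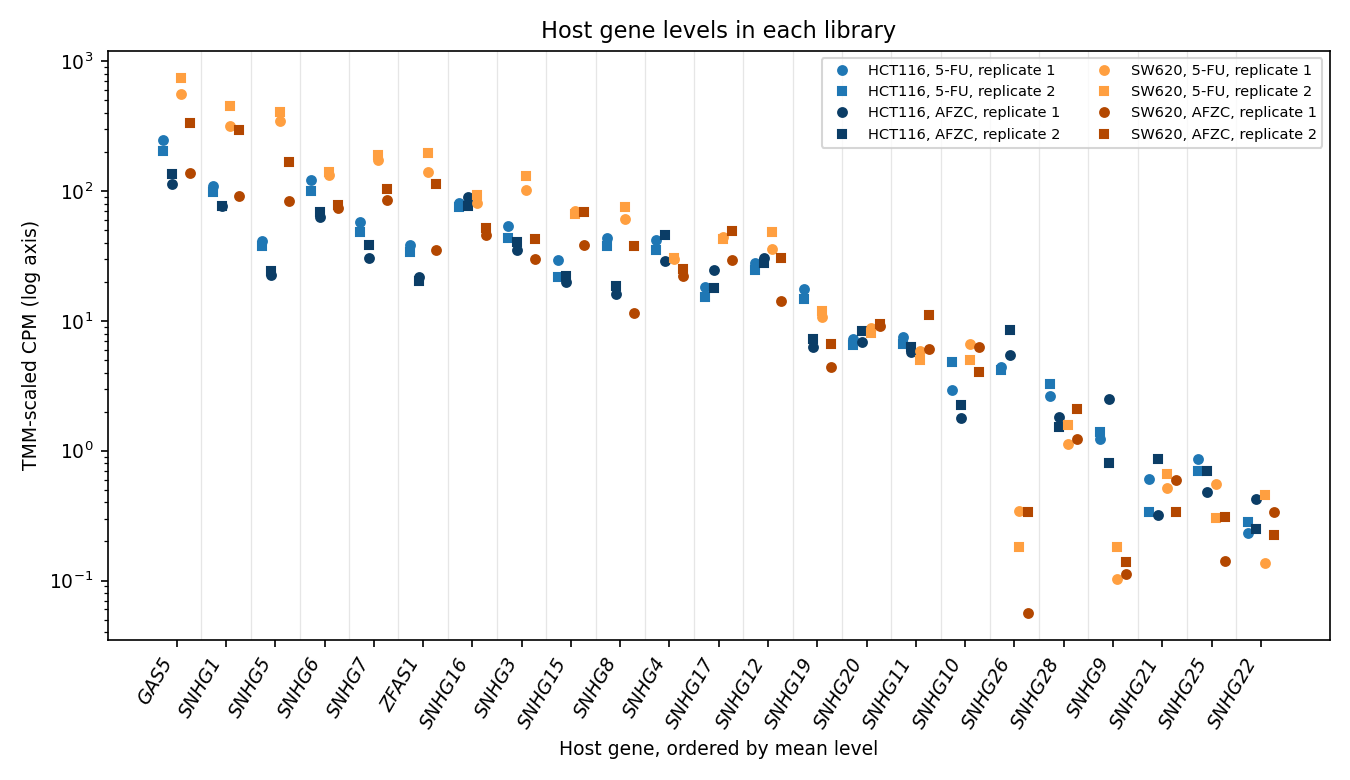
TMM-scaled CPM (log axis) of the 23 host genes tested, 1 point per library, genes ordered by mean level. GAS5, SNHG1 and SNHG5 are highest in the SW620 5-FU libraries, and SNHG26 and SNHG9 lie under 0.5 CPM in all 4 SW620 libraries.

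Before the comparisons, the 2 SW620 libraries with AFZC have to be set apart, because they differed in these genes. The second held more host RNA than the first: the members summed to 727 CPM in replicate 1 and 1434 in replicate 2. SNHG8 was 3.32 times higher in replicate 2, ZFAS1 3.25 times, SNHG1 3.23 times, GAS5 2.44 times, SNHG12 2.14 times and SNHG5 1.99 times. SNHG3, SNHG7, SNHG16, SNHG4 and SNHG6 were closer, at 1.41, 1.21, 1.14, 1.12 and 1.05 times. The median ratio was 1.69 over the 23 hosts and 0.991 over all genes, and 13 of the 23 (56.5%) were at least 1.5 times higher in replicate 2, against 11.2% of all genes. In the other 3 groups the median ratio of the hosts was 0.878, 1.12 and 1.16. Among related genes in the same pair of SW620 libraries, the median ratio was 1.22 for 35 protein-coding snoRNA hosts, 1.25 for 8 snoRNP core proteins and 1.14 for 18 decay factors. For 2 noncoding snoRNA hosts outside the SNHG names it was 1.56, with 1.13 for DANCR and 2.15 for EPB41L4A-AS1, so the gap was not confined to the members. The cell type markers mostly moved the other way in this pair. Their median ratio was 0.432 over 4 leukocyte, 0.681 over 3 fibroblast and 0.747 over 2 endothelial markers. Over 9 epithelial markers it was 0.749, with 3 of the 9 above 1. What separates the 2 libraries was not tested, and SW620 results that moved most with one of them are given without it as well.

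**Figure D2:**
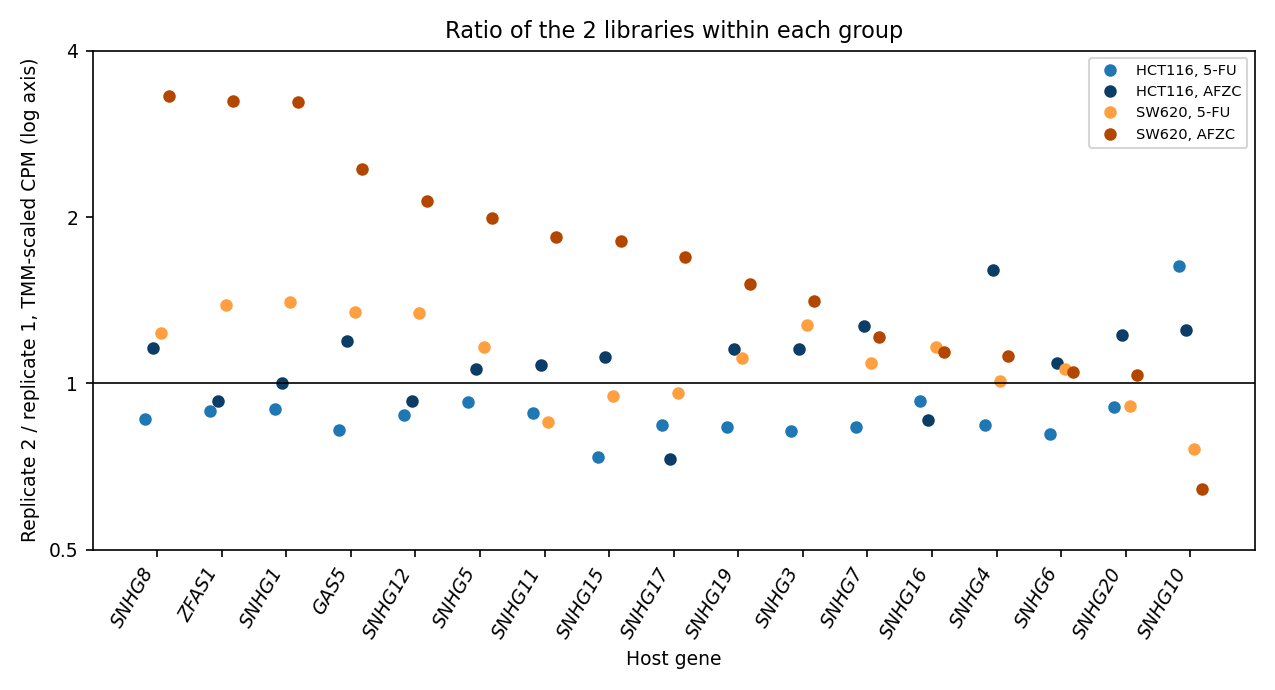
Ratio of replicate 2 to replicate 1 (TMM-scaled CPM, log axis) within each group for the 17 host genes with a mean of at least 4 CPM in SW620 with AFZC. The SW620 AFZC pair lies above 1.5 for SNHG8, ZFAS1, SNHG1, GAS5, SNHG12, SNHG5, SNHG11, SNHG15, SNHG17 and SNHG19, and near 1 for SNHG6, SNHG4 and SNHG20.

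In HCT116, the comparison of AFZC with 5-FU asks whether the nanodrug changes host RNA relative to the free drug. SNHG6, SNHG7 and SNHG19 were lower under AFZC, by 1.5-fold to 2.4-fold, and no host was called higher. That is 3 of 23 tested hosts lower, where 3.74% of all 21378 genes tested were lower and 5.87% higher (9.61% either way) by edgeR's quasi-likelihood test at an adjusted p under 0.05. At an unadjusted p under 0.05 the counts were 7 lower and 0 higher, and DESeq2 called 5 lower and 0 higher. These further counts are not set against the share of all genes by the same criterion, and nothing particular to the hosts is read from them. Fold changes of 15 of the 23 hosts were negative, and the median log2 fold change was -0.36 against 0.00 over all genes. Libraries of the 2 treatments did not overlap for 13 hosts that were lower and 2 that were higher under AFZC, where 27.4% and 28.1% of all genes did so. Nothing in the labels says whether paired libraries came from separate cultures, and p-values measure the spread between libraries, which may be technical.

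SNHG19, the host of SNORD60 with the shortest exon model among the called genes, showed the largest of these differences. It stood at 17.6 and 14.7 CPM in the HCT116 5-FU libraries and at 6.31 and 7.27 CPM under AFZC (at most 611 counts in any library), 2.38-fold lower under AFZC (log2 fold change -1.25 ± 0.26 (SE), adjusted p = 0.0109, edgeR). SNHG6, the SNORD87 host, stood at 123 and 99.6 CPM with 5-FU and 62.9 and 68.5 CPM with AFZC, a log2 fold change of -0.76 ± 0.15 (adjusted p = 0.00862). SNHG7, the host of the SNORA17 pair, stood at 57.7 and 48.2 CPM with 5-FU and 30.5 and 38.8 CPM with AFZC, a log2 fold change of -0.61 ± 0.17 (adjusted p = 0.0419). In all 3 genes both AFZC libraries lay under both 5-FU libraries. None of these calls held without HCT116 5-FU replicate 1 or without HCT116 AFZC replicate 1, where 0 hosts passed, and SNHG6 alone passed without 5-FU replicate 2. SNHG7 also missed without either SW620 5-FU library, which share the fit (adjusted p = 0.0607 and 0.0608).

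GAS5, ZFAS1, SNHG1 and SNHG5, hosts of several box C/D snoRNAs, had lower values in each HCT116 AFZC library than in each 5-FU library, without passing the test. GAS5 stood at 249 and 205 CPM with 5-FU and 113 and 135 CPM with AFZC, and ZFAS1 at 38.3 and 34.1 against 21.9 and 20.4 CPM. Their log2 fold changes were -0.87 ± 0.35 (adjusted p = 0.157) and -0.77 ± 0.47 (adjusted p = 0.37). SNHG1 stood at 109 and 98.3 CPM with 5-FU and at 76.7 CPM in both AFZC libraries, a log2 fold change of -0.44 ± 0.46 (adjusted p = 0.627). SNHG5 went from 41.1 and 38.0 CPM to 22.7 and 24.1 CPM, a log2 fold change of -0.76 ± 0.26 (adjusted p = 0.0884). These standard errors come from a fit that shares its spread with SW620. Fitted to the 4 HCT116 libraries alone, GAS5 (adjusted p = 0.00594), SNHG5 (0.0119) and ZFAS1 (0.0124) passed as well and 7 hosts were called. The 7 calls are not set against the share of all genes called in that fit.

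Among the other hosts in HCT116 some overlapped between treatments and some did not, and none passed. SNHG16 stood at 81.6 and 75.9 CPM with 5-FU and 89.8 and 77.1 CPM with AFZC, and SNHG12 at 28.0 and 24.6 against 30.3 and 28.1 CPM, with log2 fold changes of 0.08 ± 0.15 and 0.15 ± 0.29. SNHG3, the U17 host, stood at 53.4 and 43.9 CPM with 5-FU and 35.2 and 40.6 CPM with AFZC, with no overlap and a log2 fold change of -0.36 ± 0.20 (adjusted p = 0.285). SNHG15 stood at 29.7 and 21.9 CPM against 19.96 and 22.3 CPM, and its treatments overlapped. SNHG8, at 43.8 and 37.7 CPM with 5-FU and 16.1 and 18.7 CPM with AFZC, did not overlap either and had a log2 fold change near that of SNHG19 (-1.23) with a wider error (0.46) and an adjusted p of 0.144. The remaining tested hosts had log2 fold changes from -0.93 (SNHG10) to 0.70 (SNHG26). SNHG10, SNHG11, SNHG25 and SNHG28 also lay lower in both AFZC libraries than in both 5-FU libraries. For SNHG25 this rested on 30 and 25 counts with 5-FU and 18 and 25 with AFZC. Its replicate 2 libraries stood at 0.702 and 0.694 CPM.

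In SW620 the same comparison called 8 of 23 hosts lower and 0 higher, where 6.95% of all genes were lower and 11.6% higher (18.6% either way). At an unadjusted p under 0.05 edgeR gave 10 lower and 0 higher, and DESeq2 called 8 lower and 0 higher. The shares of all genes by these 2 criteria are not given, so nothing particular to the hosts is read from them. The called hosts were GAS5, SNHG3, SNHG5, SNHG6, SNHG7, SNHG12, SNHG16 and SNHG19, with 1.78-fold to 3.20-fold less RNA under AFZC. Fold changes were negative for 20 of the 23, and the median log2 fold change was -0.84 against 0.03 over all genes. The treatments did not overlap for 12 hosts that were lower and 2 that were higher under AFZC, where 28.4% and 31.5% of all genes did so. Scaled by library totals alone, in place of TMM, the median of all genes moved to 0.40 and that of the hosts to -0.46. Negative fold changes then fell to 13 of the 23 hosts, and the calls were 1 higher (SNHG11) and 6 lower. The distance between hosts and all genes was then about as wide as with TMM.

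SNHG3 had the largest fold change and the smallest p. It stood at 102 and 130 CPM in the SW620 5-FU libraries and at 30.2 and 42.5 CPM under AFZC, 3.20-fold lower (log2 fold change -1.68 ± 0.20, adjusted p = 0.000145, edgeR). SNHG5, known for the translocation breakpoint of a B-cell lymphoma at its locus, stood at 347 and 405 CPM with 5-FU and 84.3 and 168 CPM with AFZC, 2.98-fold lower (-1.58 ± 0.26, adjusted p = 0.0017). GAS5 stood at 557 and 750 CPM with 5-FU and 137 and 334 CPM with AFZC, 2.77-fold lower (-1.47 ± 0.35, adjusted p = 0.0196). In these 3 genes both AFZC libraries lay below both 5-FU libraries, with AFZC replicate 2 above AFZC replicate 1. Without AFZC replicate 1 the log2 fold changes were -1.44 for SNHG3, -1.16 for SNHG5 and -0.96 for GAS5, and without replicate 2 they were -1.95, -2.16 and -2.25. All 6 of these values passed the test, and GAS5 lost its call without SW620 5-FU replicate 2 (adjusted p = 0.146), where 5 hosts were called.

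SNHG6, SNHG7 and SNHG19 were called in both lines. SNHG6 stood at 133 and 141 CPM with 5-FU and 74.7 and 78.5 CPM with AFZC (-0.84 ± 0.15, adjusted p = 0.00254), and SNHG7 at 174 and 190 against 85.8 and 104 CPM (-0.94 ± 0.17, adjusted p = 0.00257). The AFZC libraries of SNHG6 and SNHG7 differed by 1.05 and 1.21 times, and those of SNHG19 by 1.52 times. SNHG19 stood at 10.7 and 11.9 CPM with 5-FU and 4.42 and 6.70 CPM with AFZC (-1.03 ± 0.26, adjusted p = 0.0175), from 157 to 395 counts per library. These 3 genes are 100% of the hosts called lower in HCT116 and 37.5% of those called lower in SW620. Over all genes, 263 were called lower in both lines, 32.9% of the HCT116 calls and 17.7% of the SW620 calls. SNHG19 lost its SW620 call without AFZC replicate 1 (log2 fold change -0.75, adjusted p = 0.11), without 5-FU replicate 2 and with library totals alone.

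SNHG16 and SNHG12 passed in SW620. SNHG16, the SNORD1 host, stood at 80.9 and 94.0 CPM with 5-FU and 45.6 and 51.8 CPM with AFZC (-0.85 ± 0.16, adjusted p = 0.00271). SNHG12 stood at 36.0 and 48.4 CPM with 5-FU and 14.2 and 30.3 CPM with AFZC (-0.92 ± 0.29, adjusted p = 0.0469). In both genes the treatments did not overlap. The SNHG12 call was lost in 9 of 14 other settings, with an adjusted p of up to 0.296 and a log2 fold change of -0.47 without AFZC replicate 1, while SNHG3, SNHG5, SNHG6, SNHG7 and SNHG16 passed in all 14.

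ZFAS1, SNHG1, SNHG8 and SNHG15 were not called in SW620 with all libraries, and their values moved with the AFZC library left out. ZFAS1 stood at 141 and 196 CPM with 5-FU and 35.1 and 114 CPM with AFZC, a log2 fold change of -1.18 ± 0.47 (adjusted p = 0.127). SNHG1 stood at 320 and 450 CPM with 5-FU and 91.1 and 294 CPM with AFZC, -1.002 ± 0.46 (adjusted p = 0.176). SNHG8 stood at 61.5 and 75.8 against 11.5 and 38.0 CPM, -1.47 ± 0.46 (adjusted p = 0.0615), and SNHG15 at 69.9 and 66.4 against 38.3 and 69.3 CPM, -0.34 ± 0.24 (adjusted p = 0.363). AFZC replicate 2 of SNHG15 was at the level of the 5-FU libraries. Without that replicate the log2 fold changes were -2.26 for ZFAS1, -2.08 for SNHG1, -2.58 for SNHG8 and -0.83 for SNHG15. Without replicate 1 the values were -0.56 for ZFAS1, -0.38 for SNHG1, -0.85 for SNHG8 and 0.03 for SNHG15. SNHG11 stood at 5.85 and 4.98 CPM with 5-FU and 6.08 and 11.2 CPM with AFZC.

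**Figure D3:**
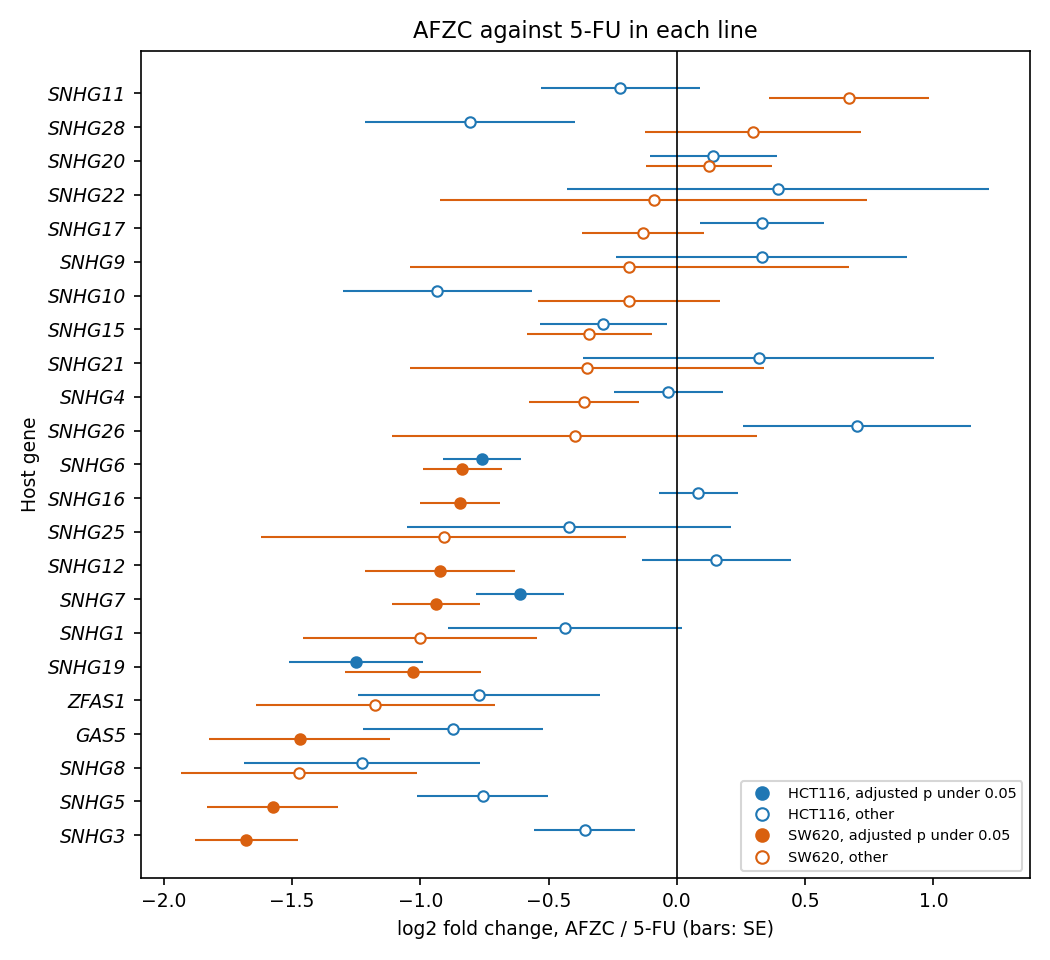
Log2 fold change of AFZC against 5-FU with its SE for the 23 host genes in HCT116 (blue) and SW620 (orange), filled where the adjusted p is under 0.05. The 3 filled HCT116 points (SNHG6, SNHG7, SNHG19) and the 8 filled SW620 points all lie below 0.

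The difference of the 2 treatment effects, SW620 minus HCT116, was tested directly. SNHG3 and SNHG16 were lower under AFZC by more in SW620 than in HCT116, and no other host passed: 2 of 23, where 4.14% of all genes had a difference in this direction and 5.65% in the other (9.78% in all). The difference was -1.32 ± 0.28 on the log2 scale for SNHG3 (adjusted p = 0.0107, edgeR) and -0.93 ± 0.22 for SNHG16 (adjusted p = 0.019). At an unadjusted p under 0.05 edgeR gave 4 hosts in this direction and 0 in the other, and DESeq2 called 2 and 0. The shares of all genes by these 2 criteria are not given either. SNHG3 did not pass without HCT116 5-FU replicate 2 (adjusted p = 0.0735) or SW620 5-FU replicate 2 (0.057). SNHG16 missed in 6 of 13 settings, with adjusted p-values of up to 0.106: with library totals alone, and without either HCT116 5-FU library, HCT116 AFZC replicate 1, SW620 5-FU replicate 2 or SW620 AFZC replicate 1. SNHG12, lower in SW620 but not in HCT116, had a difference of -1.08 ± 0.41 (adjusted p = 0.125). SNHG5 had a difference of -0.82 ± 0.36 (adjusted p = 0.181) and GAS5 of -0.60 ± 0.49 (adjusted p = 0.504). For SNHG6, SNHG7 and SNHG19, the hosts called in both lines, it was -0.08 ± 0.21, -0.33 ± 0.24 and 0.22 ± 0.37. Without SW620 AFZC replicate 2, the difference was -1.36 for GAS5, -1.63 for SNHG1, -1.47 for ZFAS1, -1.38 for SNHG5 and -1.71 for SNHG12. Without replicate 1 the difference was -0.07 for GAS5, 0.07 for SNHG1, 0.24 for ZFAS1 and -1.07 for SNHG3.

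The lines also differed within each treatment. These comparisons use the same libraries as those above and are not independent of them. Under 5-FU, 8 of 23 hosts were higher and 3 lower in SW620, where 26.5% of all genes were higher and 28.2% lower (54.8% either way), and nothing particular to the hosts is read from these counts. Among the hosts higher in SW620, SNHG5 had the largest fold change, at 41.1 and 38.0 CPM in HCT116 and 347 and 405 CPM in SW620, 9.50-fold higher (log2 fold change 3.25 ± 0.27). ZFAS1 was 4.66-fold, SNHG1 3.71-fold, SNHG7 3.44-fold and GAS5 2.88-fold higher in SW620, and SNHG15, SNHG17 and SNHG3 were also called higher. In the other direction SNHG26, the SNORD93 host, stood at 4.41 and 4.18 CPM in HCT116 and at 0.34 and 0.18 CPM in SW620 (6 to 10 counts), a log2 fold change of -4.03 ± 0.57. SNHG9, the SNORA78 host, stood at 1.24 and 1.40 CPM against 0.10 and 0.18 CPM (3 to 6 counts), -3.17 ± 0.71, and SNHG28 had a log2 fold change of -1.11 ± 0.42 (adjusted p = 0.0374). Other genes share 41.6% of the exon bases of SNHG28. The calls of SNHG5, SNHG7, SNHG26 and SNHG9 held in all 14 other settings. GAS5 missed without HCT116 5-FU replicate 2 (adjusted p = 0.0523), ZFAS1 in 2 settings, SNHG1 in 5 and SNHG28 in 6, among them those without HCT116 5-FU replicate 2 for SNHG1 and SNHG28 and without SW620 5-FU replicate 2 for ZFAS1, SNHG1 and SNHG28.

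Under AFZC, 7 hosts were higher and 4 lower in SW620, where 25.1% of all genes were higher and 24.2% lower (49.3% either way). Among those higher, SNHG5 again had the largest fold change, 5.39-fold (log2 fold change 2.43 ± 0.27), followed by ZFAS1 at 1.82 ± 0.48, SNHG7 at 1.45 ± 0.17, SNHG15 at 1.35 ± 0.25 and SNHG10 at 1.34 ± 0.37, with SNHG1 (adjusted p = 0.0449) and SNHG17 also called. SNHG1 missed in 10 of the 14 other settings, among them each that left out a library except SW620 AFZC replicate 1, and SNHG17 missed without replicate 2 of either AFZC group. The ZFAS1 value was 2.44 without SW620 AFZC replicate 1 and 0.74 without replicate 2, and it did not pass without either HCT116 AFZC library (adjusted p = 0.148 and 0.168). SNHG10 did not pass without SW620 AFZC replicate 1 (adjusted p = 0.0642) or HCT116 AFZC replicate 1 (0.0568). SNHG10 itself stood at 1.80 and 2.25 CPM in HCT116 and 6.25 and 4.02 CPM in SW620. SNHG26 (-5.13 ± 0.59), SNHG9 (-3.68 ± 0.71), SNHG16 (-0.78 ± 0.16) and SNHG4 (-0.67 ± 0.21) were lower in SW620. SNHG26 rested there on 2 and 12 counts, and its value was -4.36 without SW620 AFZC replicate 1 and -6.86 without replicate 2, both past the threshold. SNHG4, the host of SNORA74A, stood at 28.8 and 46.2 CPM in HCT116 and 22.3 and 25.0 CPM in SW620, and missed without HCT116 AFZC replicate 2 (adjusted p = 0.316), where 7 hosts were called in all. SNHG3, higher in SW620 under 5-FU, showed a difference of -0.06 ± 0.20 under AFZC, with 35.2 and 40.6 CPM in HCT116 and 30.2 and 42.5 CPM in SW620.

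**Figure D4:**
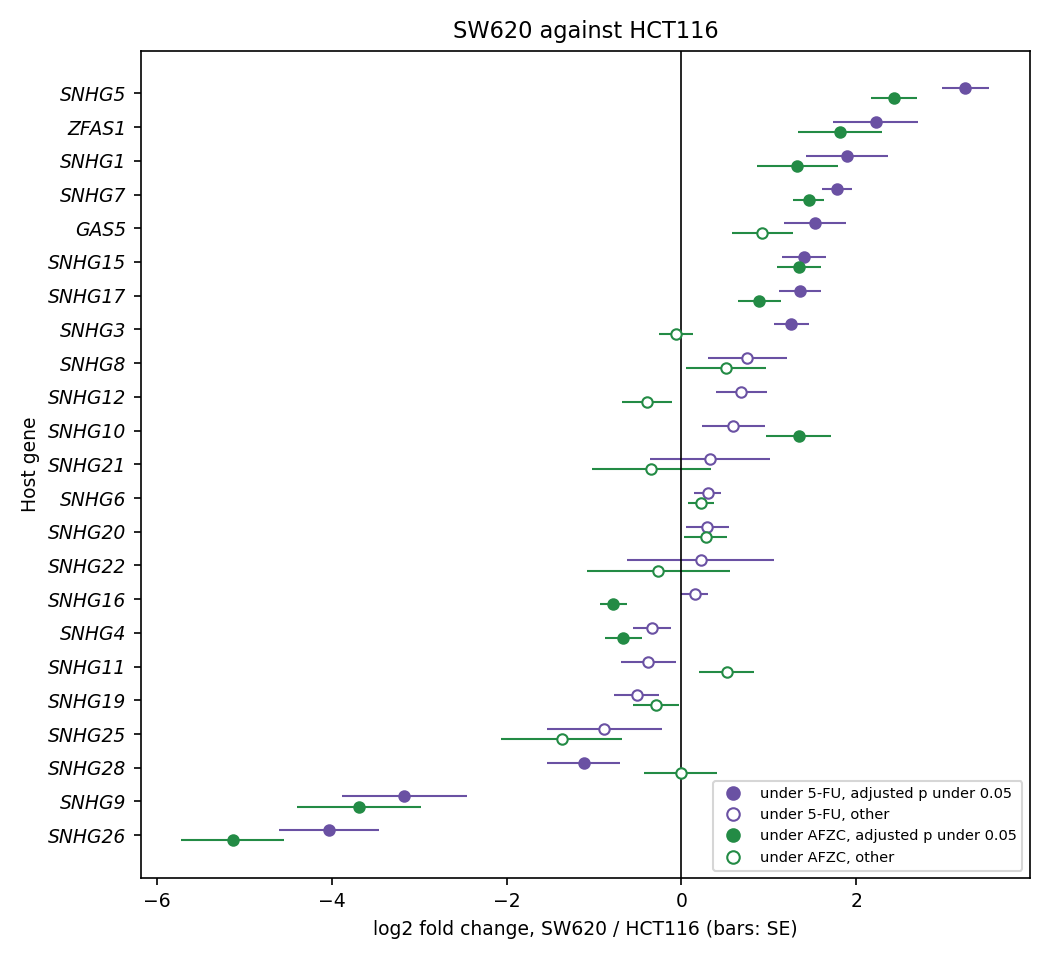
Log2 fold change of SW620 against HCT116 with its SE for the 23 host genes under 5-FU (purple) and AFZC (green), filled where the adjusted p is under 0.05. SNHG5 lies farthest to the right under both agents (3.25 and 2.43), and SNHG26 and SNHG9 lie below -3.

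Promoter sequence was available for 22 of the 26 hosts, from 250 bases before to 50 after the RefSeq start (GRCh38.p14), and was described because terminal oligopyrimidine starts are known in this family. A start of this kind, a C followed by at least 4 C or T exactly at the annotated start, was found in 6 hosts (27.3%): SNHG4, SNHG5, SNHG12, SNHG18, SNHG19 and ZFAS1. Among all 35116 promoters 4.1% had it. Within 10 bases either side of the start it was found in 13 hosts (59.1%) and in 33.5% of all promoters. The letters TATAA, on the gene's strand and 40 to 20 bases before the start, occurred in 6 hosts (27.3%), SNHG5, SNHG7, SNHG8, SNHG12, SNHG19 and ZFAS1, and in 3.8% of all promoters; this search was added after some sequences had been seen. On either strand of the window, CGGAAG was in 5 hosts (22.7%, 19.5% of all), CACGTG in 1 (4.5%, 7.3% of all), TTTCGCGC in 2 (9.1%, 0.5% of all) and TTTGGCGC in 0 (0.7% of all). The 50 bases on each side of the start are shown for 4 hosts that have both features (the tract of SNHG7 begins 1 base before its start) and for SNHG1, which has neither at these positions, with TATAA and the pyrimidine tract in capitals and letters as on the gene's strand.
SNHG5, chr6:85678684-85678783, minus strand: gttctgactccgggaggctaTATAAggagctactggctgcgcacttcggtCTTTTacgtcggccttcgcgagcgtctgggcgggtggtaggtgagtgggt
SNHG19, chr16:2155309-2155408, minus strand: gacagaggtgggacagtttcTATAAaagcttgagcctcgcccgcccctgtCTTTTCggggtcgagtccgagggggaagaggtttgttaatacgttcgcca
SNHG7, chr9:136728135-136728234, minus strand: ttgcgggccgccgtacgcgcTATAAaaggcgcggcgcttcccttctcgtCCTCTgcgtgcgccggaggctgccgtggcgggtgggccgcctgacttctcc
ZFAS1, chr20:49278592-49278691, plus strand: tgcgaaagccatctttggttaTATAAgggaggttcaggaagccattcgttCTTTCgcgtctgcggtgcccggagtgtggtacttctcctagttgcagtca
SNHG1, chr11:62855836-62855935, minus strand: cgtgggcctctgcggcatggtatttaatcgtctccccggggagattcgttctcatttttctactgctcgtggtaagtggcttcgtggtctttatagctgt
In SNHG5, SNHG19 and SNHG7, TATAA began 30 bases before the start, and in ZFAS1 29 bases. SNHG5, SNHG19 and SNHG7 were picked for printing among the hosts called in a treatment comparison, so their calls are no finding about promoters. SNHG12 and SNHG8 also have both features and are not shown. Under AFZC in SW620, SNHG5, SNHG19 and SNHG7 were called lower, as was SNHG12, and ZFAS1, SNHG8, SNHG4 and SNHG1 were not called. SNHG3 and SNHG16, which lack TATAA at this position, were called lower too. A link between promoter sequence and treatment was not tested. The annotated RefSeq start of GAS5 lies outside the deposited exon model, so its window is not shown. A match of letters is a description of the sequence and not of factor binding.

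Genes that work with the hosts were counted beside them. Of all genes tested, 3.74% were lower and 5.87% higher under AFZC in HCT116, and 6.95% were lower and 11.6% higher in SW620. Of 35 protein-coding snoRNA hosts, most of them ribosomal protein and translation factor genes, 22 were lower and 0 higher under AFZC in HCT116 (median log2 fold change -0.77; 25 lower and 0 higher at an unadjusted p under 0.05, 24 and 0 by DESeq2), and 29 were lower and 1 higher in SW620 (median -1.11). The largest were RPL3, at -1.95 in HCT116 and -1.89 in SW620, and RPL12, at -1.64 and -1.99, both parts of the large ribosomal subunit. The counts at an unadjusted p and by DESeq2 are not set against shares of all genes. RPL17 and EIF4A1, both called lower in SW620, had at most 141 and 504 counts in any library. The SW620 median of this list is the RPL17 value. DANCR and EPB41L4A-AS1, noncoding snoRNA hosts outside the SNHG names, gave 1 call, DANCR lower in SW620 (-0.69 ± 0.20, adjusted p = 0.0326). EPB41L4A-AS1 had log2 fold changes of -0.91 ± 0.40 in HCT116 and -1.17 ± 0.39 in SW620, and neither passed (adjusted p = 0.213 and 0.0773).

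The proteins that package snoRNAs were counted in the same way, beside the same shares of all genes (3.74% lower and 5.87% higher in HCT116, 6.95% and 11.6% in SW620). With so few calls in short lists, nothing particular to these lists is read from the counts. Among 8 snoRNP core proteins 1 was lower in HCT116, FBL (fibrillarin, the C/D methyltransferase, -0.63), and 2 in SW620, SNU13 (-0.64), the protein that binds the C/D fold first, and FBL (-0.60), with medians of 0.05 and -0.30. Among 14 assembly and trafficking factors, 2 were higher and 0 lower in HCT116: C12orf45 (0.92) and TGS1 (0.77), the cap hypermethylase. In SW620 0 of the 14 were called by edgeR or by DESeq2, and 2 had an unadjusted p under 0.05. Of 18 nonsense-mediated decay factors, which act on the spliced RNAs of several hosts, CASC3, a part of the exon junction complex, was higher in HCT116 (0.55, adjusted p = 0.0405), with medians of 0.23 in HCT116 and -0.05 in SW620. In SW620 0 of the 18 passed by edgeR or DESeq2, and 1 had an unadjusted p under 0.05. UPF1, the helicase of the pathway, had log2 fold changes of 0.36 ± 0.16 in HCT116 and -0.43 ± 0.16 in SW620, neither past the threshold, and the difference of -0.79 ± 0.22 between the lines passed (adjusted p = 0.0416). NOP56 and DKC1 are counted in both the core protein list and the list of protein-coding hosts.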

How the data were processed

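RNA was measured in 8 libraries, 2 per group. The deposited values are raw counts per symbol, with featureCounts columns. Per the submitters' processing notes the build is GRCh38, the aligners HISAT2 and STAR, and further tools FastQC, cutadapt, Trimmomatic and featureCounts. Which aligner made the counts, and how multiple alignments and mates were treated, is not given in the sources used here. In each library the number of genes with 2 counts was 1.68 to 1.84 times that with 1, so counts may not be independent fragments.

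Counts passing filterByExpr (minimum count 10, 21378 genes) were scaled with TMM and fitted in edgeR 4.0.16 (R 4.3.3, limma 3.58.1, package data.table at 1.17.8) with 4 group means over all 8 libraries, robust dispersion and 4 residual degrees of freedom. Tests were two-sided quasi-likelihood tests with Benjamini-Hochberg adjustment over all genes and a threshold of 0.05. SE is the size of the log2 fold change over the square root of F. DESeq2 1.42.0, no filter, other scalings, a replicate block, fits of 4 libraries and leaving out each library were alternatives. The steps were tested on simulated counts for AFZC against 5-FU in HCT116. Of 100 genes changed 2-fold and 100 changed 4-fold, 64% and 94% were recovered. Of the calls, 8.67% were false, where the adjusted p threshold was 0.05. CPM and TPM were computed here, TPM with the deposited exon model length.

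The members and lists were chosen with earlier results of these data known. Every library's value is given for members called in either treatment comparison and for GAS5, ZFAS1, SNHG1 and SNHG15. All called members are named for the difference, the 5 largest per direction between lines, and 2 per related list. SNHG8, SNHG10, SNHG11, SNHG4, SNHG17, SNHG25, EPB41L4A-AS1 and UPF1 were named outside this rule, after their values were seen.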

Additional observations from a re-analysis of the deposited data

Results flagged for a closer look

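The AFZC effect differed between the lines, by the test of the difference itself, for SNHG3 (-1.32 on the log2 scale, SW620 minus HCT116) and SNHG16 (-0.93). SNHG3 was 3.20-fold lower under AFZC in SW620 and 1.28-fold lower in HCT116. SNHG16 was 1.80-fold lower in SW620 and 1.06-fold higher in HCT116.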

How the results depend on the processing

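The number of hosts called in HCT116 was 3, and 5 with no filter, 7 with the 4 HCT116 libraries alone and 5 with DESeq2. For the difference between lines it was 2, and 4 with no filter and 1 with library totals alone. Leaving out each library in turn gave 0 to 7 calls in HCT116, 5 to 12 in SW620, 0 to 8 for the difference, 8 to 13 between lines under 5-FU and 7 to 12 under AFZC. The fit that leaves 1 library in a group assumes that it varies like the others. Library totals alone turned SNHG15 in SW620 to 0.027, and the difference between lines to 0.28 for SNHG6, 0.023 for SNHG7 and 0.29 for SNHG15, none of which passed. Without 1 library, the difference ran from -0.24 to 0.089 for SNHG6, -0.53 to 0.34 for SNHG15, -1.47 to 0.24 for ZFAS1, -1.63 to 0.071 for SNHG1 and -0.089 to 0.52 for SNHG19, SNHG16 in HCT116 from -0.039 to 0.17, and SNHG15 in SW620 from -0.83 to 0.031. The cause of these changes was not tested. Calls over all genes moved between settings as well, so a change in the number of hosts called is not read as particular to the hosts. Over all genes, library totals alone gave 5141 higher and 445 lower in SW620, against 2482 and 1486, and 2455 and 430 for the difference, against 1207 and 884. No filter gave 1306 lower in HCT116, against 800, and 1848 with a higher difference. Without 1 library, HCT116 calls ran down to 216 higher and 89 lower without 5-FU replicate 1, and SW620 calls to 1135 higher and 448 lower without 5-FU replicate 2. Over all genes, same-numbered libraries did not deviate together (r of 0.02 in HCT116 and -0.03 in SW620, across genes, which are not independent). This r does not speak for the hosts alone. In SW620, replicate 2 was above replicate 1 for 16 of 23 hosts with 5-FU and 20 of 23 with AFZC. In HCT116 it was above for 4 and 16 of 23. Whether the numbers pair the libraries for the hosts was not tested. With the replicate block the calls were 3, 9, 2, 11 and 11, against 3, 8, 2, 11 and 11.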
